A study of Mus musculus with 6 samples.

Results

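The transcripts described here encode 9 proteins that take up iron, store it, sense it and build it into iron-sulfur clusters and heme: Tfrc, Fth1, Ftl1, Aco1, Ireb2, Iscu, Nfs1, Fech and Alad. They were chosen by symbol, each matched 1 of the 10041 gene rows of the deposited table, and all 9 had values high enough to be tested. The RNA came from mouse Th17 cultures, in which naive CD4 T cells were activated for 48 h. The antibodies were plate-bound anti-CD3e, at 10 µg/ml, and anti-CD28, at 1 µg/ml. The cytokines were IL-23, at 10 ng/ml, IL-6, at 20 ng/ml, and TGF-β1, at 2.5 ng/ml. One group of 3 libraries received the vehicle DMSO and the other 3 received oligomycin (2.5 ng/ml), an inhibitor of the mitochondrial ATP synthase, so both groups share the activation and the Th17 cytokines. The labels name no strain, age or sex, and do not say whether the libraries of a group came from separate animals, so p-values measure only the spread between these libraries.

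T cells that divide after activation take up iron through the transferrin receptor, the product of Tfrc, which internalises iron-loaded transferrin. Iron that is not used is held inside ferritin, a hollow shell of heavy chains (Fth1), which oxidise the metal, and light chains (Ftl1), which help to form its mineral core. The iron regulatory proteins IRP1 (Aco1) and IRP2 (Ireb2) bind hairpins called iron-responsive elements when iron is scarce. Binding in the 3′ UTR of the transferrin receptor mRNA stabilises it, and binding in the 5′ UTR of a ferritin mRNA blocks its translation. With an iron-sulfur cluster in place, IRP1 no longer binds RNA and acts as cytosolic aconitase. In mitochondria, Nfs1 takes sulfur from cysteine and passes it to the scaffold Iscu, on which clusters are built. Alad joins precursor molecules to form porphobilinogen early in heme synthesis, and Fech, which itself holds a cluster, inserts iron into protoporphyrin at the end.

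The iron-responsive elements are shown because the 3 most abundant of these mRNAs carry them, the receptor at one end and the ferritin chains at the other. They were searched for in GENCODE M21 transcripts (GRCm38) as a C, 5 bases of upper stem, the loop CAGTGN and 5 bases pairing with the stem, G·T pairs allowed, on the transcript strand only. At least 4 of the 6 positions of the lower stem also had to pair. Capitals mark the loop, the site is 29 bases long, and of the 9 genes Tfrc, Fth1 and Ftl1 held a match. Among 21877 genes searched, 47 (0.2148%) did.
Tfrc 3′ UTR, chr16:32631219-32631247, + strand: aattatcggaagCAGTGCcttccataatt
Tfrc 3′ UTR, chr16:32631598-32631626, + strand: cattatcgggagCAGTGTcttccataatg
Tfrc 3′ UTR, chr16:32631663-32631691, + strand: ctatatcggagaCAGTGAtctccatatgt
Tfrc 3′ UTR, chr16:32631710-32631738, + strand: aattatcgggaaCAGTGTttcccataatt
Fth1 5′ UTR, chr19:9982732-9982760, + strand: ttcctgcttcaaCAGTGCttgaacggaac
Ftl1 5′ UTR, chr7:45459779-45459807, − strand: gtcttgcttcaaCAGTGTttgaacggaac
The 4 Tfrc sites lay in 1 transcript's 3′ UTR and paired at 6, 6, 5 and 6 lower-stem positions, in the order printed. The ferritin sites had 26 of 29 bases in common. Counted from the 5′ end of the Fth1 site, with its base first, the differences were T1G, C4T and C18T. Elements that depart from the pattern searched would be missed, so the sites printed may not be all. A match is a description of the letters and was not tested for protein binding.

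With oligomycin, the mRNAs for the transferrin receptor, IRP1 and the heme enzyme Alad were lower. Tfrc had a mean 2.12-fold lower than in DMSO, Aco1 1.55-fold lower and Alad 1.41-fold lower. Neither ferritin chain, nor Ireb2, Iscu, Nfs1 or Fech, passed the test in either direction. A gene was called where limma's moderated test of log2(FPKM + 1) gave a Benjamini-Hochberg adjusted p under 0.05 over the 9986 genes tested. By that rule 3 of the 9 genes were lower and 0 were higher. Over all genes tested, 30.2% were called, 16.1% lower and 14.0% higher, so the share of iron genes called was near that of all genes. The median change of the 9 genes was 0.0042 on the log2 scale, beside -0.0044 for all genes tested. As these are bulk cultures, fewer cells of a kind and less of an RNA per cell cannot be told apart.

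**Figure D1:**
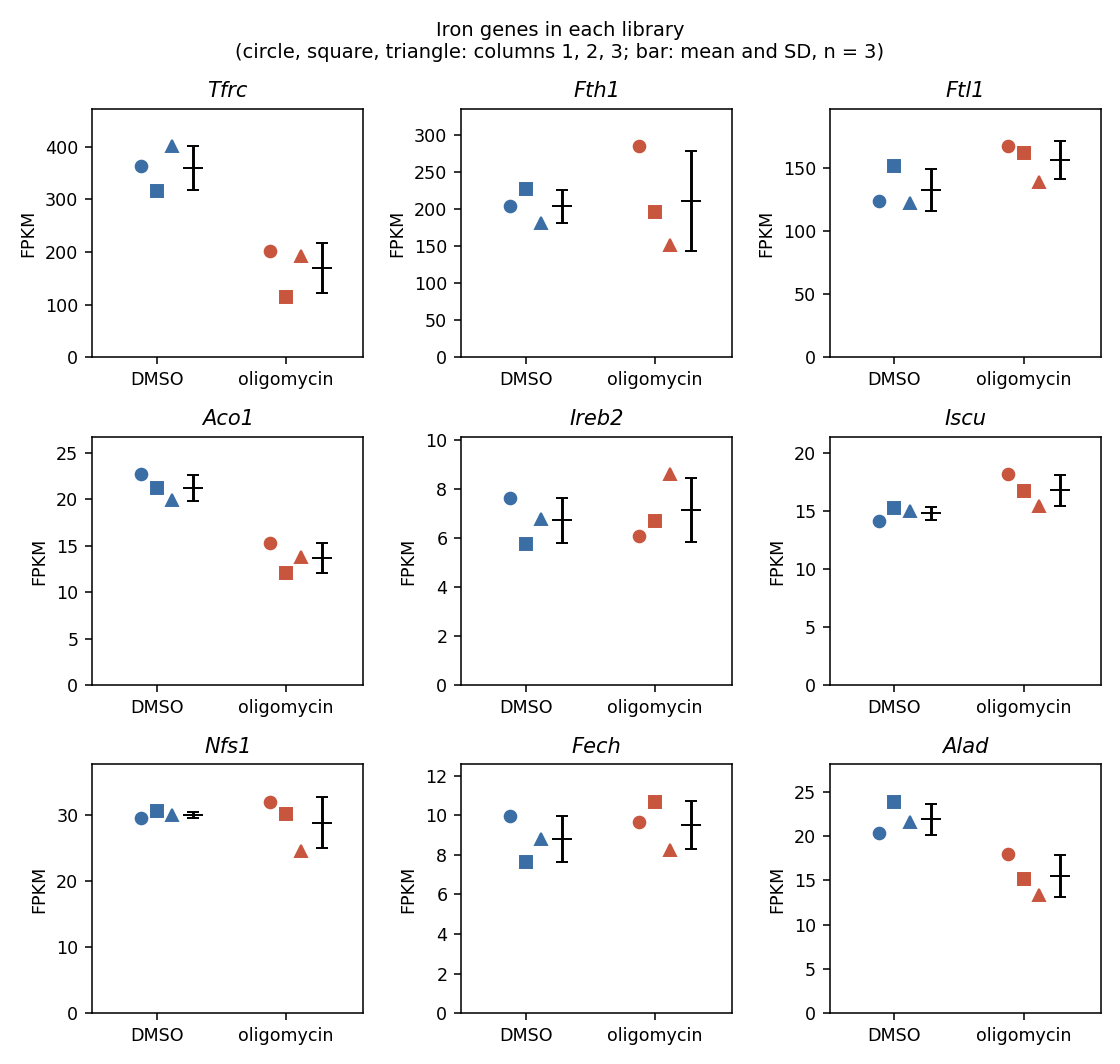
FPKM (vertical axes, each starting at 0) of the 9 iron genes in the 3 DMSO and 3 oligomycin libraries, 1 panel per gene, with the mean and SD (n = 3) beside the points. Tfrc, Aco1 and Alad have every oligomycin library below every DMSO library, Iscu has every one above, and the other genes overlap.

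FPKM divide a gene's fragments by its transcript length and by the size of the library, so levels can be set side by side between genes. The sequencing depth behind them is unknown, as the values do not come with counts. The summed FPKM of the libraries ran from 1434028 to 2103404. In them 137 small RNA rows took 68.8% to 75.7% of the sum with DMSO and 78.1% to 80.2% with oligomycin. Calls after rescaling libraries without these rows are given below. Beyond that, the part of this difference in the results was not tested. Markers of CD4 T cells were present, 7 of 8 with values, summing to 853 to 1002 FPKM with DMSO and 799 to 948 with oligomycin. Of these, Thy1 (log2 change -0.97, limma adjusted p = 0.0293) and Cd28 (-0.53, adjusted p = 0.0422) were lower. The other 5 were not called, with changes of 0.24 for Cd3e, 0.23 for Cd3d, 0.21 for Cd3g, -0.18 for Cd4 and -0.084 for Lck. None of 10 erythroid markers, which would bear on heme genes, and none of 8 B cell markers had a row in the table used here. Of 12 myeloid markers, 2 had one (Cst3 and Cd68), summing to 69.2 to 94.4 FPKM with DMSO and 58.9 to 79.0 with oligomycin, most of it Cst3. Of 8 CD8 T or NK cell markers, 3 had one (Klrd1, Nkg7 and Cd8b1), summing to 18.1 to 39.7 and 13.4 to 32.1 FPKM. Nkg7 was higher (log2 change 0.83, limma adjusted p = 0.0499), while Klrd1 (-0.75) and Cd8b1 (0.021) were not called. The part of these other cells in the results was not tested.

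The mRNA of the uptake receptor showed the largest change of the 9 genes. Tfrc (XLOC_007600, chr16:32608896-32632794, + strand, GRCm38) stood at 362, 316 and 400.1 FPKM in the DMSO libraries and at 203, 115 and 192 FPKM with oligomycin. The highest oligomycin library was below the lowest DMSO library. The means were 359.6 ± 42.1 and 169.9 ± 47.9 FPKM (SD, n = 3 each), a log2 change of -1.11 with SE 0.22 and a 95% interval from -1.61 to -0.61 (limma adjusted p = 0.0069). Among all rows of the table, Tfrc moved from percentile 97.9 to percentile 96.1 of the group means, so it remained an abundant mRNA in both groups. Its call held when each library was left out in turn, with log2 changes from -1.26 to -0.86.

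Neither ferritin mRNA passed the test. Fth1 (XLOC_009932, chr19:9982703-9985092, + strand) measured 203, 226 and 182 FPKM with DMSO and 284, 196 and 151 FPKM with oligomycin. The oligomycin libraries held both the highest and the lowest value, on either side of all DMSO libraries. Means were 204 ± 22.3 and 211 ± 67.6 FPKM (SD, n = 3), and the log2 change of 0.0042 had SE 0.22 and a 95% interval from -0.50 to 0.50 (limma adjusted p = 0.990). Without the first oligomycin library the change was -0.24, so its sign rested on single libraries.

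Ftl1 (XLOC_019031, chr7:45457944-45459886, − strand) measured 124, 151 and 122 FPKM with DMSO and 167, 162 and 139 FPKM with oligomycin. The second DMSO library lay inside the oligomycin range and the other DMSO libraries lay below it. The means were 132 ± 16.4 and 156 ± 14.9 FPKM (SD, n = 3), with a log2 change of 0.24, SE 0.14 and a 95% interval from -0.075 to 0.55 (limma adjusted p = 0.218). Quantile normalization changed the call, giving 0.45 with an adjusted p of 0.0228. GENCODE lists 11 further genes or pseudogenes named after the heavy chain and 3 after the light chain, of which 0 had a row, and how reads matching several copies were handled is not given in the sources used here. Ftl1 values are therefore uncertain, all the more as the GENCODE genes Gm10252 and Gm22133 overlap its locus. The same uncertainty holds for reads shared by Fth1 and its copies.

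Ratios within a library do not depend on how that library was scaled. The ratio of Tfrc to Fth1, receptor over storage chain, was 1.78, 1.40 and 2.202 with DMSO and 0.713, 0.586 and 1.27 with oligomycin. Tfrc mRNA was the more abundant of the pair in every DMSO library, and in the oligomycin group only the third library had that order. The mean log2 ratio differed by -1.12 between the groups, a 2.18-fold difference of geometric means. As the fitted log2 changes were -1.11 for Tfrc and 0.0042 for Fth1, this difference largely restates that of Tfrc. The groups did not overlap, which gave a 2-sided exact permutation p of 0.1, the smallest that 3 libraries against 3 allow. Leaving out single libraries kept the direction, with differences from -1.45 to -0.89.

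The ratio of heavy to light chain, Fth1 to Ftl1, was 1.64, 1.495 and 1.49 with DMSO and 1.70, 1.21 and 1.09 with oligomycin. Heavy chain mRNA exceeded light chain mRNA in all 6 libraries. The means were 1.54 ± 0.0869 and 1.33 ± 0.326 (SD, n = 3), the log2 difference was -0.24 and the exact permutation p was 0.4 (2-sided), with overlapping groups. The difference in mean was smaller than the spread of the oligomycin libraries.

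**Figure D2:**
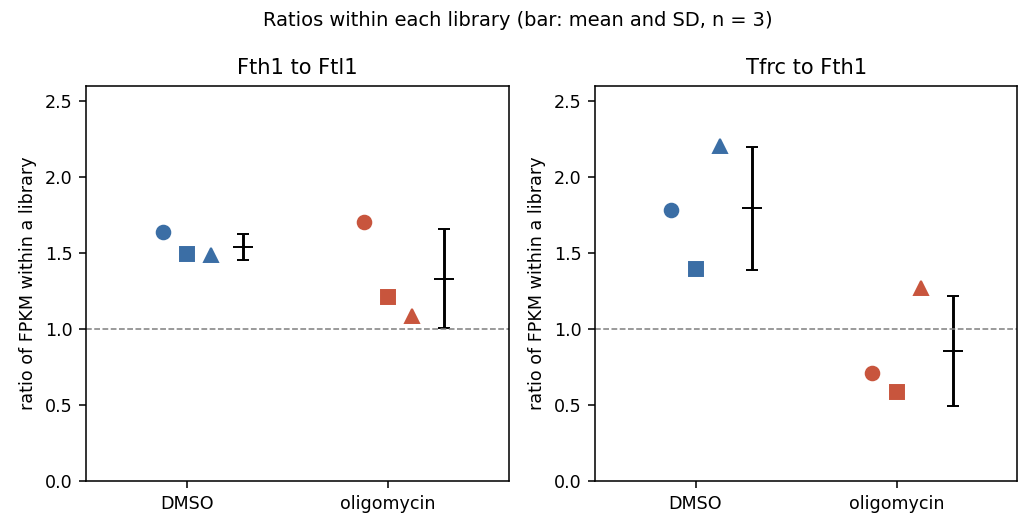
Ratios of FPKM within each library (vertical axis, from 0) for Fth1 to Ftl1 on the left and Tfrc to Fth1 on the right, with the mean and SD (n = 3) and a dashed line at equal levels. The Tfrc to Fth1 ratio is 1.40 or above with DMSO and 1.27 or below with oligomycin, while the Fth1 to Ftl1 ratios overlap.

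The pair of iron regulatory proteins showed different results. Aco1, encoding IRP1 (XLOC_013705, chr4:40143265-40199009, + strand), measured 22.7, 21.2 and 19.9 FPKM with DMSO and 15.3, 12.1 and 13.8 FPKM with oligomycin. Each group was tight and the groups stood apart. Means were 21.3 ± 1.39 and 13.7 ± 1.62 FPKM (SD, n = 3), a log2 change of -0.60 with SE 0.12 and a 95% interval from -0.88 to -0.32 (limma adjusted p = 0.0082). Aco1 was called under every setting run, with log2 changes from -0.68 to -0.49.

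Ireb2, encoding IRP2 (XLOC_021078, chr9:54863755-54912534, + strand), measured 7.63, 5.79 and 6.77 FPKM with DMSO and 6.09, 6.72 and 8.61 FPKM with oligomycin. The groups overlapped, with 1 DMSO library below and 1 oligomycin library above the range of the other group. Means were 6.73 ± 0.922 and 7.14 ± 1.31 FPKM (SD, n = 3) and the log2 change was 0.070, SE 0.16, with a 95% interval from -0.29 to 0.43 (limma adjusted p = 0.757). IRP2 is controlled largely by degradation of the protein, which mRNA levels do not show. The difference between the changes of Aco1 and Ireb2 was not tested.

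Neither gene of mitochondrial cluster assembly passed the test. Iscu, the scaffold (XLOC_015427, chr5:113772812-113778282, + strand), measured 14.1, 15.2 and 14.98 FPKM with DMSO and 18.1, 16.7 and 15.4 FPKM with oligomycin. All oligomycin libraries lay above all DMSO libraries, by a small margin. Means were 14.8 ± 0.573 and 16.8 ± 1.35 FPKM (SD, n = 3), with a log2 change of 0.17, SE 0.11 and a 95% interval from -0.086 to 0.42 (limma adjusted p = 0.2796). With Tfrc, Aco1 and Alad, Iscu made 4 of 9 iron genes whose groups did not overlap, against 47.3% of all genes tested. These were 3 in the lower direction, against 24.3% of all genes, and 1 in the higher direction, against 23.1%.

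Nfs1, the cysteine desulfurase (XLOC_012377, chr2:156123637-156145794, − strand), measured 29.6, 30.6 and 29.99 FPKM with DMSO and 31.9, 30.1 and 24.5 FPKM with oligomycin. The DMSO libraries were nearly equal, and the third oligomycin library was the low one. Means were 30.1 ± 0.493 and 28.9 ± 3.87 FPKM (SD, n = 3), and the log2 change was -0.065, SE 0.12, with a 95% interval from -0.35 to 0.22 (limma adjusted p = 0.715). Without the third oligomycin library it was 0.044, and with libraries rescaled to an equal FPKM sum 0.032. Romo1 has a row at an overlapping position and GENCODE also places Gm28036 there. Whether strand was used in counting is not given in the sources used here, so reads of these genes may be mixed.

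Of both heme enzymes, the early one was lower and the last one was not called. Alad (XLOC_014519, chr4:62509170-62520063, − strand) measured 20.4, 23.8 and 21.6 FPKM with DMSO and 18.0, 15.2 and 13.3 FPKM with oligomycin. All oligomycin libraries lay below all DMSO libraries. Means were 21.9 ± 1.75 and 15.5 ± 2.35 FPKM (SD, n = 3), a log2 change of -0.48 with SE 0.135 and a 95% interval from -0.79 to -0.17 (limma adjusted p = 0.0286). This call was the least firm of the 3, as it was lost without any 1 of the DMSO libraries or oligomycin library 2 or 3 (adjusted p from 0.0532 to 0.0935) and kept without oligomycin library 1 (0.0127).

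Fech, the ferrochelatase (XLOC_009753, chr18:64456550-64489066, − strand), measured 9.98, 7.64 and 8.82 FPKM with DMSO and 9.66, 10.6 and 8.25 FPKM with oligomycin. The groups overlapped. Means were 8.82 ± 1.17 and 9.52 ± 1.20 FPKM (SD, n = 3), and the log2 change was 0.10, SE 0.14, with a 95% interval from -0.22 to 0.43 (limma adjusted p = 0.611).

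**Figure D3:**
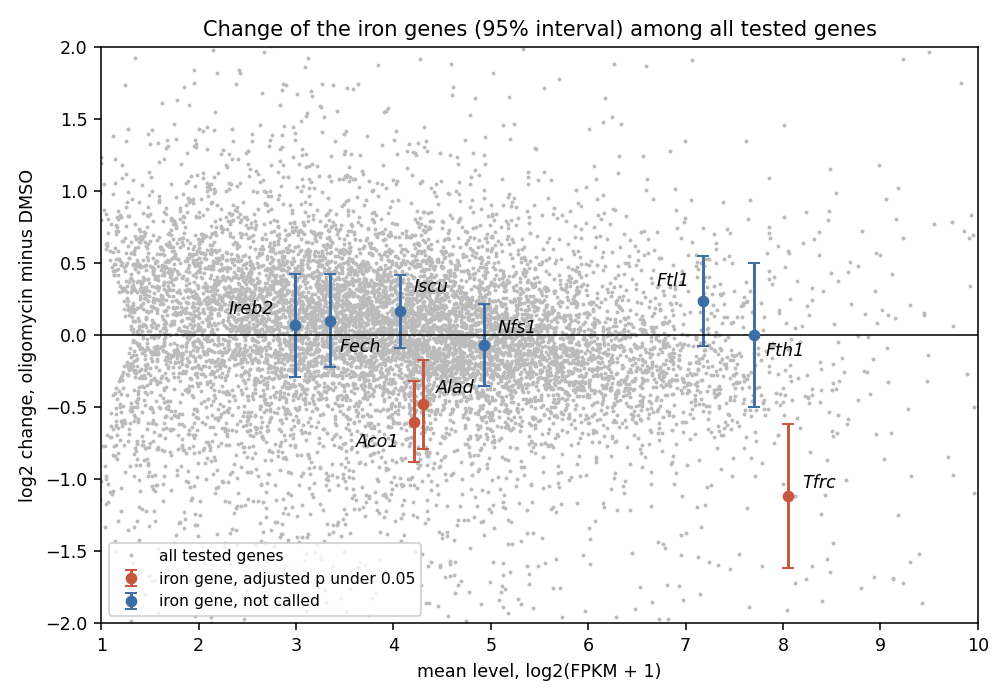
Fitted log2 change of FPKM + 1 (vertical axis) against the mean level as log2(FPKM + 1) (horizontal axis) for the genes tested (grey, 236 of 9986 lie outside the axes) and the 9 iron genes with 95% intervals. Tfrc, Aco1 and Alad have intervals wholly below 0 and the intervals of the other 6 include 0.

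The order of levels also differed between the groups. With DMSO it ran Tfrc, Fth1, Ftl1, Nfs1, Alad, Aco1, Iscu, Fech, Ireb2, and each gene's libraries lay wholly above those of the next, except that Alad and Aco1 overlapped. Fech and Ireb2 nearly met, at 7.64 FPKM for the lowest Fech and 7.63 FPKM for the highest Ireb2 library. With oligomycin the order ran Fth1, Tfrc, Ftl1, Nfs1, Iscu, Alad, Aco1, Fech, Ireb2. There the ranges over libraries of the top 3 overlapped, as did those of Iscu and Alad, Alad and Aco1, and Fech and Ireb2. Within single libraries, Fth1 was above Ftl1 and Iscu above Alad in 3 of 3, while Tfrc was above Fth1 in 1 of 3. In both groups the receptor and the ferritin chains stood at 115 FPKM or more in every library, and the other 6 genes at 31.9 FPKM or less.

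The genes nearest in profile to each called iron gene were found by the root mean square difference between log2(FPKM + 1) values, centred on each gene's mean, over the 6 libraries and among 6896 single-gene rows with a mean of at least 5 FPKM. Nearest to Tfrc were Spc25 (difference 0.0906), Dbf4 (0.107) and Cenph (0.111). Spc25, for example, had means of 39.0 ± 3.97 FPKM with DMSO and 17.0 ± 4.93 FPKM with oligomycin (SD, n = 3). Nearest to Aco1 were Ndufb8 (0.0327), 2310061C15Rik (0.038) and Hspa14 (0.050), and nearest to Alad were Tmem109 (0.0365), Lrrc58 (0.0367) and Hn1 (0.0435).

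Around the 9 genes, 7 lists of other genes of iron handling held 87 tested genes, of which 18 were lower, 5 were higher and 64 were not called. That is 20.7% lower and 5.75% higher, with a median log2 change of -0.19, against the shares of all genes given above. Rescaling libraries to an equal FPKM sum without small RNA rows (equal-sum scaling) moved the calls over all genes from 1403 higher and 1610 lower to 1869 higher and 1315 lower. It moved the median of all genes from -0.0044 to 0.088. The 7 lists went from 18 lower and 5 higher to 11 lower and 11 higher. Of the calls over all genes, 46.56% were higher with the values as deposited and 58.7% under this scaling. The counts of the lists thus changed with the scaling, as did those of all genes, and the cause was not tested. The lists held 5 lower and 4 higher genes without DMSO library 3, and 8 and 5 without DMSO library 1. They held 11 and 6 without DMSO library 2, and 6 and 5 without oligomycin library 3. Without oligomycin library 2 the counts were 12 and 8, and without oligomycin library 1 they rose to 19 and 6.

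Of 6 other iron transport genes tested, 1 was lower and 0 were higher, and the list's median was 0.23. Slc11a2, the divalent metal transporter that moves iron out of endosomes, had means of 18.8 ± 1.52 and 13.8 ± 0.563 FPKM with DMSO and oligomycin (SD, n = 3) and fell by 0.42 on the log2 scale (limma adjusted p = 0.0224). Its call was lost without any 1 of the DMSO libraries or oligomycin library 3 (adjusted p up to 0.0847). Slc25a37, mitoferrin-1, which carries iron into mitochondria, measured 5.40 ± 0.965 and 7.34 ± 1.39 FPKM and was not called (adjusted p = 0.123).

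Among 12 tested genes of iron storage and its regulation, 2 were higher and 2 lower, with a median of 0.065. Bach1, a repressor that releases its targets when it binds heme, rose from 2.94 ± 0.395 to 6.88 ± 0.814 FPKM (SD, n = 3), a log2 change of 1.00 (limma adjusted p = 0.0017). Herc2, a ubiquitin ligase, rose from 10.2 ± 0.593 to 17.8 ± 2.62 FPKM (adjusted p = 0.0042). Cisd1, an iron-sulfur protein of the outer mitochondrial membrane, fell from 73.7 ± 4.96 to 45.0 ± 8.42 FPKM (adjusted p = 0.0082). The fourth, Cul1, a scaffold of the ligase that marks IRP2 for degradation, fell by 0.33 on the log2 scale, a call lost whichever of the 6 libraries was left out (adjusted p 0.0617 to 0.156). Fbxl5, the iron-sensing subunit of that ligase, measured 24.4 ± 2.35 and 25.5 ± 1.97 FPKM (adjusted p = 0.716), and Ncoa4, which delivers ferritin for breakdown, 2.11 ± 0.0362 and 2.72 ± 0.669 FPKM (adjusted p = 0.304). These last 2 were chosen after their values were seen.

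Mitochondrial cluster assembly beyond Iscu and Nfs1 was mixed, with 3 of 16 tested genes lower, 1 higher and a median of 0.047. Hscb, the co-chaperone that helps clusters leave Iscu, rose from 22.9 ± 2.32 to 41.8 ± 4.25 FPKM (SD, n = 3), a log2 change of 0.84 (limma adjusted p = 0.0021). Fdx1, a ferredoxin that supplies electrons, fell from 34.2 ± 0.327 to 22.0 ± 1.55 FPKM, a change of -0.62 (adjusted p = 0.0037). Both were called under every setting run. Isca2, which takes part in forming larger clusters, fell by 0.45, and Glrx5, a carrier of clusters, by 0.39 on the log2 scale (adjusted p = 0.0243 and 0.0450). Of the 3 falls, 1 was called without DMSO library 1 or 3 or oligomycin library 2 or 3, that of Fdx1. Under equal-sum scaling (described above) the balance of the list turned to 1 lower and 3 higher, with Nfu1 (adjusted p = 0.0316) and Bola1 (0.0451), both named after their values were seen, called in addition to Hscb. Glrx5 also lost its call without oligomycin library 1, with quantile normalization and without the intensity trend. The lowest change of the list, -0.64 for Ndufab1, was not called (adjusted p = 0.119).

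Of 11 tested genes of the cytosolic assembly machinery, 0 were called by limma. Changes ran from -0.40 for Fam96b (adjusted p = 0.0806) to 0.49 for Ndor1 (adjusted p = 0.0854), with a median of -0.25. Bola2, a partner of cytosolic glutaredoxin, measured 363 ± 37.1 FPKM with DMSO and 509 ± 88.4 FPKM with oligomycin (SD, n = 3, adjusted p = 0.0565). It was called higher with quantile normalization (adjusted p = 0.0085), with equal-sum scaling (0.0161) and without genes that share a locus (0.0394).

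Of 10 tested genes of heme synthesis besides Alad and Fech, 4 were lower and 1 was higher, with a median of -0.30. Of 7 enzymes of the pathway, Alad and Fech included, 3 were lower, 1 was higher and 3 were not called. Alas1, the first and rate-limiting enzyme, fell from 16.5 ± 0.376 to 12.3 ± 0.231 FPKM (SD, n = 3, log2 change -0.39, limma adjusted p = 0.0214). Cpox, which acts in the mitochondrial intermembrane space, fell from 95.6 ± 5.62 to 57.1 ± 6.46 FPKM (-0.74, adjusted p = 0.0032). Uros, which acts between Alad and Urod, went the other way.

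Uros, uroporphyrinogen III synthase, measured 4.77, 3.67 and 5.19 FPKM with DMSO and 9.26, 11.1 and 10.6 FPKM with oligomycin. The groups were far apart, the rise was 2.27-fold in the mean, and the log2 change was 1.04 (limma adjusted p = 0.0015). Urod (-0.19, adjusted p = 0.318) and Ppox (-0.21, adjusted p = 0.479), the enzymes on either side of Cpox, were not called, like Fech. Of helpers of the pathway, Abcb10, a transporter of the inner mitochondrial membrane, fell from 4.59 ± 0.378 to 1.81 ± 0.364 FPKM (-0.997, adjusted p = 0.0026), and Clpx, an unfoldase that acts on the first enzyme, fell by 0.37 (adjusted p = 0.0375). Uros and Cpox were called under every setting run, and Abcb10 under every setting but the filter of 5 FPKM, which it did not pass. Leaving out 1 library ended the call of Alas1 for 4 of the 6 libraries and of Clpx for 6, and equal-sum scaling ended both. The list's count of lower genes dropped from 4 to 2 without DMSO library 1, 2 or 3 or oligomycin library 3, and was also 2 under equal-sum scaling. There 2 genes were higher, as Slc25a38, a mitochondrial glycine carrier named after its values were seen, was called too (adjusted p = 0.02296, against 0.0505 with the values as deposited).

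**Figure D4:**
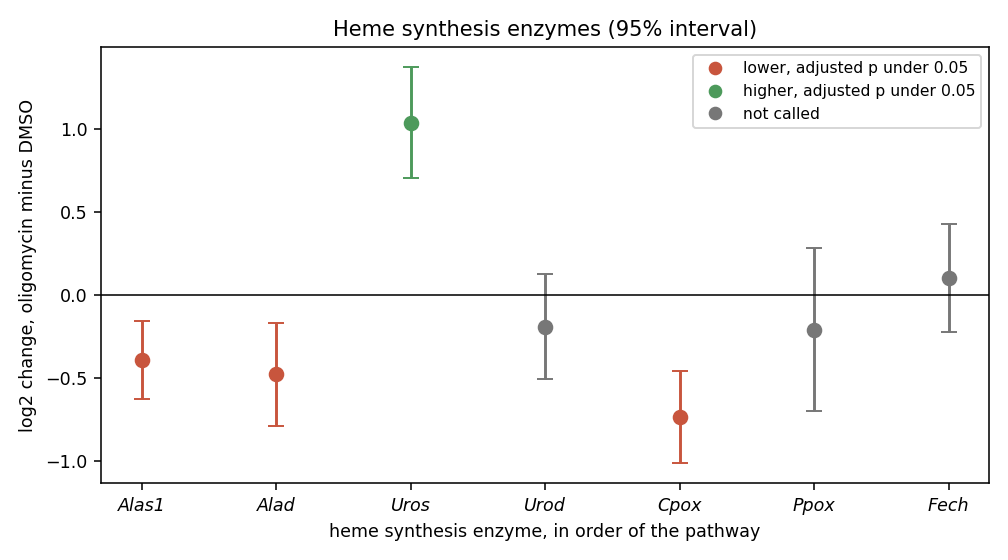
Fitted log2 change with its 95% interval (vertical axis) of 7 enzymes of heme synthesis, in pathway order from left to right. Alas1, Alad and Cpox lie below 0, Uros lies at 1.04, and the intervals of Urod, Ppox and Fech include 0.

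Of 8 tested genes of heme transport and breakdown, 1 was lower and 0 were higher, with a median of 0.024. Pgrmc2, a heme chaperone, fell by 0.42 on the log2 scale (limma adjusted p = 0.01996), a call lost without DMSO library 2 or 3 or oligomycin library 3 (adjusted p up to 0.0829). Slc46a1, a folate transporter that also carries heme, measured 2.07 ± 0.690 and 3.60 ± 0.664 FPKM (SD, n = 3, adjusted p = 0.0580). Hmox1, the heme oxygenase that frees iron from heme and a target of Bach1, measured 5.34 ± 1.02 and 6.60 ± 2.13 FPKM and was not called (adjusted p = 0.444). It was chosen after its values were seen.

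Proteins that carry iron-sulfur clusters, the clients of this machinery, had 7 of 24 tested genes lower and 1 higher, with a median of -0.24. The helicase Brip1 fell from 9.02 ± 0.581 to 4.90 ± 0.986 FPKM (SD, n = 3, adjusted p = 0.0063). The nuclease and helicase Dna2 (-0.77, adjusted p = 0.0194), the DNA polymerase subunit Pole (-0.53, adjusted p = 0.0195) and Etfdh, which passes electrons to ubiquinone (-0.49, adjusted p = 0.0149), were also lower. Elp3, the catalytic subunit of Elongator, was the 1 higher gene (0.44, adjusted p = 0.0165). Uqcrfs1, the Rieske protein of respiratory complex III, was lower too (-0.63, adjusted p = 0.0228). Ddx11 (-0.41) and Prim2 (-0.52) made up the 7 lower genes and are named outside the rule. Leaving out 1 library ended the calls of these 3 for 4 of the 6 libraries (Uqcrfs1 and Ddx11) or 5 (Prim2). With all 6 libraries, Ddx11 also lost its call under equal-sum scaling (limma adjusted p = 0.06547) and Uqcrfs1 with quantile normalization (0.05672). Prim2 lost its call under 5 other settings (adjusted p 0.05061 to 0.08025), among them quantile normalization and equal-sum scaling. The count of 7 dropped to 3 without DMSO library 1, to 1 without DMSO library 3 and to 2 without oligomycin library 3. It was 5 without DMSO library 2 or oligomycin library 2 and rose to 9 without oligomycin library 1. Brip1 was called under every setting run. Dna2 and Elp3 lost their calls without DMSO library 1 or 3, Etfdh without DMSO library 3 or oligomycin library 3, and Pole without DMSO library 2 or 3 or oligomycin library 3.

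**Figure D5:**
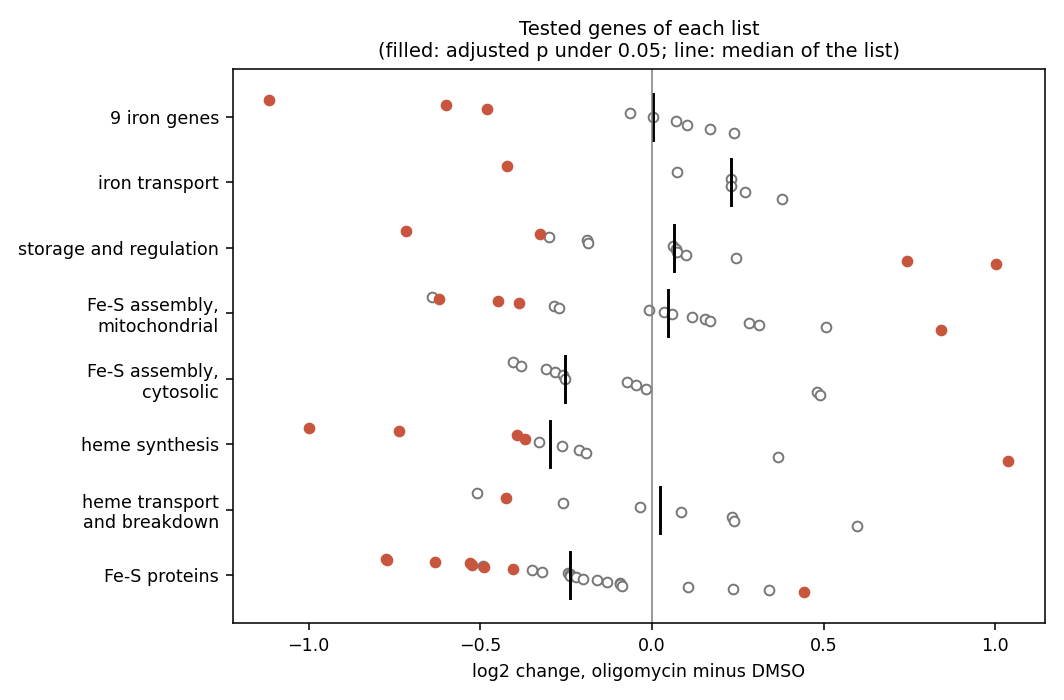
Fitted log2 change (horizontal axis) of every tested gene of the 9 iron genes and 7 related lists, 1 line of points per list, filled where the limma adjusted p was under 0.05, with a bar at each list's median. Called genes lie on both sides of 0 in the lists of storage and regulation, mitochondrial assembly, heme synthesis and iron-sulfur proteins.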

How the data were processed

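RNA-seq was done on 6 libraries. Per the labels' protocols, RNA was extracted with an RNeasy Plus Mini Kit and libraries followed Illumina's procedure. The authors deposited FPKM values, 1 per gene and library. The submitters' processing notes name the build GRCm38 (mm10) and the tools Cuffdiff 2.2.1.3, Cuffnorm 2.2.1.1, Cufflinks 2.2.1.0 and TopHat2 2.1.0. The sources used here do not give the annotation, the scaling between libraries or the treatment of multi-mapping reads. Columns carried a group and a number that is not in the sample titles, so each was mapped to its group alone, and library order in the text is column order.

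The test was limma 3.58.1 under R 4.3.3 on log2(FPKM + 1), with an intensity trend, the group as the only term and Benjamini-Hochberg adjustment over the 9986 of 10041 rows that reached 1 FPKM in 3 or more libraries. The pseudocount understates changes of low genes. Folds are ratios of mean FPKM. The fit was tested on simulated data, and small changes can go uncalled with 3 libraries per group. Ratios were compared by exact permutation tests (scipy 1.17.1). Of the columns with per-sample values, 0 were left unused. The table's starts were read as counted from 0 and are printed counted from 1.

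The members, the lists of related genes and the tests were chosen with earlier results of these data known. Some items of the lists are not reported here, and the lists are counted without them. Named were all 9 members and up to 6 called genes per list by p (the 2 of smallest p where fewer than 2 were called). Genes at the ends of a list's range, 3 nearest profiles per called member, and the markers that had a row were named too. Alternatives were other pseudocounts, filters and scalings, no trend, no shared loci, and each library left out in turn.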

Additional observations from a re-analysis of the deposited data

How the results depend on the processing

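Tfrc and Aco1 stayed lower and called under all 14 alternatives run, and Alad kept its direction. Ftl1 was the 1 iron gene to become called, and higher, under quantile normalization, where 1 iron gene was thus higher. The sign of 3 genes that were not called turned: Fth1 (-0.0754 without DMSO library 3, -0.2354 without oligomycin library 1), Ireb2 (-0.0206 without DMSO library 2, -0.0558 without oligomycin library 3) and Nfs1 (0.0002 with quantile normalization, 0.032 with equal sums, 0.0444 without oligomycin library 3). Their ranges with 1 library left out ran to 0.2176, 0.1633 and down to -0.1398. Leaving out 1 library gave 2 to 3 iron genes called, all lower (2 to 3), and 0 to 0 higher. Over all genes it gave 1769 to 3248 called, 989 to 1861 lower and 780 to 1387 higher, with 1887 without DMSO library 1 and 1769 without DMSO library 3. The highest count, 3248, came without oligomycin library 1, against 3013 with all libraries. Each of these fits had 1 library fewer, and the cause of the shifts was not tested. With shared loci left out, Nfs1 had no value. The ratio differences kept their sign (Fth1 to Ftl1 from -0.4253 to -0.1014, Tfrc to Fth1 from -1.4478 to -0.8891), and with a library left out the smallest exact permutation p was 0.2. Of 26 called genes among the members and lists, 10 were tested and called in every setting run. The sample titles share numbers between the groups. No paired analysis was possible because the columns carry other numbers, which no source used here ties to the titles. Depth is unknown, so counting error could not be given for low genes.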
